A study of Mus musculus with 6 samples.

Results

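The 10 genes described here belong to the Wnt pathway and were followed by name in RNA-seq of mouse RPE-choroid: the secreted modulators Frzb, Sfrp1, Sfrp5, Wif1 and Dkk3, the receptors Fzd4 and Lrp6, the transducer Ctnnb1, the nuclear factor Lef1 and the target Axin2. They were chosen as modulators and targets of Wnt signalling and found by Ensembl identifier, and all 10 were among the 15663 genes listed. This tissue joins the retinal pigment epithelium (RPE), a pigmented sheet of cells that borders the photoreceptors, with the choroid, the bed of blood vessels beneath that sheet. The libraries came from 3 untreated control mice and 3 mice with subretinal fibrosis (SRF), all male, 8 to 10 weeks old and of the strain C57BL/6 in the labels, which the study's methods give as C57BL/6J. In SRF mice each eye received 4 laser burns, each lesion was burned again 10 days later, and RNA was extracted after another 20 days. The labels give no genetic change for either group. The lesions take up only part of each eye, and the whole RPE-choroid was sampled, so a change limited to the lesions would be diluted in these values.

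In the canonical pathway, a Wnt protein brings a Frizzled receptor and the co-receptor LRP5 or LRP6 together, which stops a cytoplasmic complex built on Axin from marking β-catenin for destruction. β-catenin then enters the nucleus and acts with TCF and LEF factors on target genes, of which Axin2 is the most widely used readout. Secreted proteins of the SFRP, WIF and Dickkopf families act outside the cell on Wnt proteins or their receptors, and in the eye Norrin signals through Frizzled-4 in the growth and barrier function of retinal vessels.

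Total counts ranged from 13667310 to 24356023 per library. Counts were scaled to a common library size as CPM with TMM factors between 0.978 and 1.03, and 3 counts stood for 0.125 to 0.223 CPM. Values per library are given below in the order of the mouse numbers. The label of the tissue was checked with 16 RPE marker genes, whose mean log2 CPM was 10.39 to 10.50 in control and 10.03 to 10.25 in SRF libraries. At an unadjusted p under 0.05 in edgeR 7 of the 16 were lower in SRF, beside 2.85% of all tested genes. Photoreceptor markers (22 genes) separated the libraries without regard to group, with a mean log2 CPM of 7.67 in control 1 and 7.74 in SRF 3 against 3.75 to 4.95 in the other 4. Markers of the ocular surface epithelium (6 genes) ran from 3.59 in control 1 to 7.09 in control 3, and in SRF libraries from 4.91 to 6.01. Fibroblast and stromal markers (8 genes) ran from 7.37 to 8.35 in control and from 7.92 to 8.53 in SRF libraries. Macrophage markers (10 genes) ran from 5.15 to 5.52 in control and from 5.87 to 6.18 in SRF libraries. Of these, 6 of the 10 were higher in SRF at an unadjusted p under 0.05 in edgeR, beside 4.16% of all tested genes. Endothelial markers (12 genes) lay between 6.69 and 7.08 and mural cell markers (8 genes) between 6.63 and 7.25 over all libraries. No marker was at 0 in any library, since the lowest count of any listed gene was 1. In bulk tissue such as this, fewer cells of a type and less RNA per cell cannot be told apart.

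None of the 10 Wnt genes could be shown to differ between SRF and control beyond the spread between mice. Of the 13454 genes tested with edgeR's quasi-likelihood method, a gene was called when its Benjamini-Hochberg adjusted p was under 0.05 and its log2 fold change was 0.5 or more up or down. By this rule 0 of the 10 were called, and 0% of all tested genes were. Their smallest adjusted p in edgeR with Benjamini-Hochberg adjustment was 0.766. At an unadjusted p under 0.05 the count was also 0 of 10, where 7.01% of all tested genes passed. This count moved with the setting. It was 2 of 10 without control 1 (Sfrp1 and Fzd4, beside 7.75% of all tested genes) and 3 of 10 without both control 1 and SRF 3 (Sfrp1, Fzd4 and Sfrp5, beside 17.5%). Fzd4 alone passed in the fit with a replicate block (beside 8.96%) and with ocular surface marker levels as a covariate (beside 8.44%). The control and SRF values overlapped for all 10 genes, while 13.1% of all tested genes did not overlap, 6.71% higher and 6.43% lower in SRF. DESeq2 called 0 of the 10 as well, and 1.14% of all tested genes. In SRF 6 members had a higher and 4 a lower fitted level, with a median log2 fold change of 0.08 against 0.00 over all tested genes. By the exact permutation test, two-sided, the smallest p of any member was 0.2, and 3 mice against 3 cannot go under 0.1.

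**Figure D1:**
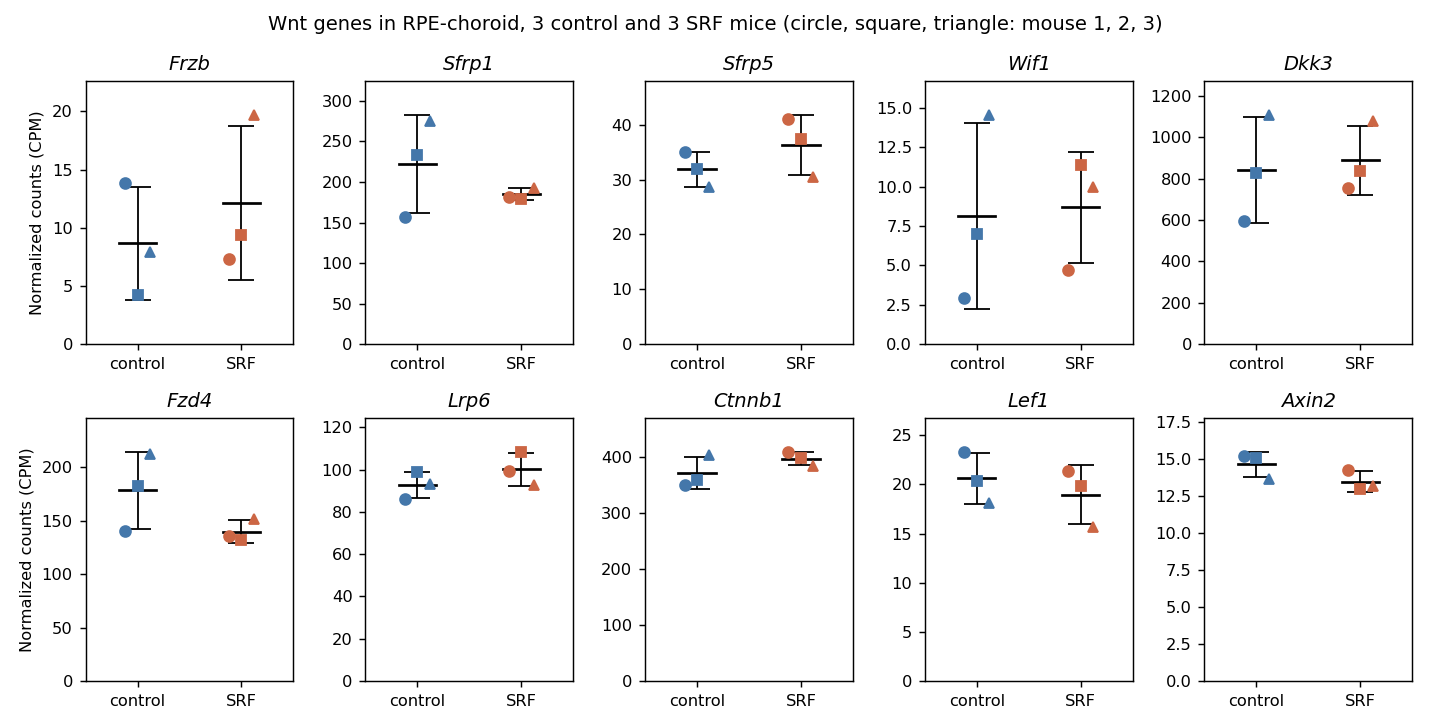
Normalized counts (CPM, vertical axes from 0) of the 10 Wnt genes in 3 control mice (blue) and 3 SRF mice (orange). Circle, square and triangle stand for mouse 1, 2 and 3, and the black bars for the mean and SD. The groups overlap in every panel, with the widest spread for Frzb and Wif1 and the narrowest for Ctnnb1 and Axin2.

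The secreted antagonists of the SFRP family carry a Frizzled-like domain that binds Wnt proteins outside the cell. Frzb (also called Sfrp3; ENSMUSG00000027004, chromosome 2 of GRCm38, 80411970 to 80447625, reverse strand) was at 13.8, 4.23 and 7.93 CPM in controls 1 to 3 and at 7.35, 9.41 and 19.7 CPM in SRF 1 to 3. Control 1 and SRF 3 were the highest of their groups, and the highest library held 4.65 times the CPM of the lowest. The log2 fold change was 0.49 (standard error 0.52, 95% interval -0.73 to 1.72, adjusted p = 0.977 from edgeR with Benjamini-Hochberg adjustment). With 1 library left out it ran from -0.042 without SRF 3 and 0.16 without control 2 to 0.75 without SRF 1 and 0.99 without control 1. The 2 libraries with most Frzb were also the 2 with most photoreceptor RNA, and the 7 markers of Müller glia, the radial glia of the retina, had a mean log2 CPM of 6.77 in control 1 and 6.88 in SRF 3 against 5.90 to 6.49 in the others. With both of those libraries left out, the log2 fold change of Frzb was 0.45. Photoreceptor marker levels as a covariate in edgeR gave 0.52 with a standard error of 0.29, and Frzb was not called. The part of retinal RNA in the spread of Frzb was not itself tested.

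Sfrp1 (ENSMUSG00000031548, chromosome 8, forward strand, 23411502 to 23449632) was at 157, 233 and 276 CPM in controls 1 to 3 and at 182, 180 and 193 CPM in SRF 1 to 3. The 3 SRF libraries lay close together and inside the range of the controls, above control 1 and below controls 2 and 3. Its log2 fold change was -0.27 with a standard error of 0.20, a 95% interval from -0.75 to 0.22 and an adjusted p of 0.932 from edgeR with Benjamini-Hochberg adjustment. Controls 1 and 3 moved this value in opposite directions. It was -0.08 without control 3, -0.46 without control 1 and -0.49 without both control 1 and SRF 3, and edgeR with Benjamini-Hochberg adjustment called it in none of them, with an adjusted p of 0.442 without control 1 and 0.129 without both libraries.

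Sfrp5 (ENSMUSG00000018822, chromosome 19, 42197971 to 42202252, reverse strand), the remaining family member here, was at 35.0, 32.0 and 28.6 CPM in controls 1 to 3 and at 41.1, 37.4 and 30.4 CPM in SRF 1 to 3. SRF 1 and SRF 2 lay above all controls, and SRF 3 lay among them. The log2 fold change was 0.19 (standard error 0.15, 95% interval -0.17 to 0.55, adjusted p = 0.939 from edgeR with Benjamini-Hochberg adjustment). Sfrp5 kept its direction under all 19 other settings, from 0.09 without SRF 1 and 0.12 without control 3 to 0.30 without SRF 3 and 0.37 without both SRF 3 and control 1.

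Wif1 (ENSMUSG00000020218, chromosome 10, 121033960 to 121100650, forward strand) encodes a secreted inhibitor that binds Wnt proteins through a domain of its own kind. It was at 2.90, 7.0 and 14.5 CPM in controls 1 to 3 and at 4.70, 11.4 and 9.97 CPM in SRF 1 to 3. Both the lowest and the highest library were controls, 5.0 times apart. The log2 fold change was 0.08, and with a 95% interval from -1.31 to 1.47 (adjusted p = 0.9999 from edgeR with Benjamini-Hochberg adjustment), neither an increase nor a decrease past the threshold can be told from no change. The sign turned when control 1 (-0.31), control 2 (-0.017), SRF 2 (-0.16) or SRF 3 (-0.032) was left out, and the value was 0.80 without control 3. Fibroblast and stromal, ocular surface and macrophage markers were likewise lowest in control 1 among all 6 libraries, as were the total counts. Ocular surface marker levels as a covariate in edgeR gave 0.40 with a standard error of 0.45, against 0.08 and 0.59 in the main fit. Wif1 was not called. The part of these markers and of the total counts in the spread of Wif1 was not itself tested.

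Dkk3 (ENSMUSG00000030772, chromosome 7, 112116017 to 112159057, reverse strand) encodes a secreted glycoprotein of the Dickkopf family that, unlike its relatives, is not an established antagonist at LRP6. It was at 595, 826 and 1106 CPM in controls 1 to 3 and at 754, 836 and 1077 CPM in SRF 1 to 3. The range of the SRF mice lay wholly inside that of the controls. The log2 fold change was 0.08 (standard error 0.25, 95% interval -0.50 to 0.66, adjusted p = 0.9999 from edgeR with Benjamini-Hochberg adjustment). It was -0.12 without control 1, -0.083 without SRF 3 and -0.28 without both, and 0.32 without control 3, 0.18 without SRF 1 and 0.12 without SRF 2.

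Fzd4 (ENSMUSG00000049791, chromosome 7, 89404355 to 89413134, forward strand) encodes Frizzled-4, the receptor of Norrin and of several Wnt proteins. It was at 141, 183 and 212 CPM in controls 1 to 3 and at 136, 132 and 152 CPM in SRF 1 to 3. All SRF libraries lay below control 2 and control 3, and control 1 fell between SRF 1 and SRF 3. Its log2 fold change of -0.35 (standard error 0.17, 95% interval -0.75 to 0.04) had the smallest p of the 10 genes, 0.0718 before and 0.766 after adjustment in edgeR with Benjamini-Hochberg adjustment. Under 19 other settings the direction held, between -0.56 and -0.21, and the gene was called in none of them. It was -0.21 without control 3, and it was -0.50 without control 1 and -0.56 without both control 1 and SRF 3, the latter pair with adjusted p of 0.411 and 0.0919 in edgeR with Benjamini-Hochberg adjustment.

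In the control mice Sfrp1, Wif1, Dkk3, Fzd4 and Ctnnb1 followed the same order, lowest in control 1 and highest in control 3. Sfrp5, Lef1 and Axin2 followed the reverse order, highest in control 1 and lowest in control 3. The fibroblast and stromal markers and the ocular surface markers rose from control 1 to control 3. So did the total counts, at 13667310, 18885187 and 24356023 in controls 1 to 3. Photoreceptor markers fell from control 1 to control 3, with a mean log2 CPM of 7.67, 4.95 and 4.24. What set the order of these genes in the controls was not tested. Among the SRF mice the genes that rose in the controls had no common order. Ctnnb1 was highest in SRF 1, Wif1 in SRF 2, and Sfrp1, Dkk3 and Fzd4 in SRF 3. The mean level of the ocular surface markers was added to the edgeR model, a setting added after the data had been seen. Log2 fold changes were then -0.22 for Sfrp1, 0.40 for Wif1, 0.14 for Dkk3, -0.33 for Fzd4 and 0.10 for Ctnnb1. For Sfrp5, Lef1 and Axin2 they were 0.19, -0.11 and -0.12. Each was in the direction of the model without these markers, and none was called.

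Lrp6 (ENSMUSG00000030201, chromosome 6, 134446476 to 134566965, reverse strand), the co-receptor, was at 86.1, 98.7 and 93.3 CPM in controls 1 to 3 and at 99.5, 108 and 92.5 CPM in SRF 1 to 3. SRF 3 lay below 2 of the 3 controls, and SRF 1 and SRF 2 lay above all of them. The log2 fold change was 0.11 (standard error 0.11, 95% interval -0.15 to 0.38, adjusted p = 0.971 from edgeR with Benjamini-Hochberg adjustment), and with 1 library left out it ran from 0.05 without SRF 2 and 0.06 without control 1 to 0.16 without SRF 3. Ctnnb1 (ENSMUSG00000006932, chromosome 9, 120929216 to 120960507, forward strand), the gene of β-catenin, was at 350, 358 and 404 CPM in controls 1 to 3 and at 408, 398 and 384 CPM in SRF 1 to 3. Control 3 lay within the range of the SRF mice and the other controls below it. Its log2 fold change was 0.10 (standard error 0.11, 95% interval -0.16 to 0.35, adjusted p = 0.987 from edgeR with Benjamini-Hochberg adjustment), and it ran from 0.06 without control 1 to 0.16 without control 3. β-catenin is regulated mainly through the stability of the protein, which transcript counts do not measure. Ctnnb1 overlaps Ulk4 on the opposite strand, and whether counting used the strand was not given in the sources used here, so reads of the overlap cannot be told apart.

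Lef1 (ENSMUSG00000027985, chromosome 3, 131110471 to 131224356, forward strand) encodes a DNA-binding partner of β-catenin and is itself a known target of the pathway in several tissues. It was at 23.3, 20.4 and 18.2 CPM in controls 1 to 3 and at 21.4, 19.9 and 15.6 CPM in SRF 1 to 3. The lowest library was SRF 3 and the highest control 1, with the other 4 between 18.2 and 21.4 CPM. Its log2 fold change was -0.12 (standard error 0.17, 95% interval -0.53 to 0.29, adjusted p = 0.9999 from edgeR with Benjamini-Hochberg adjustment), and it was 0.004 without SRF 3, -0.022 without control 1 and 0.10 without both, against -0.20 without control 3 and -0.21 without SRF 1.

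Axin2 (ENSMUSG00000000142, chromosome 11, 108920349 to 108950783, forward strand) encodes a scaffold of the destruction complex and is induced by β-catenin, so that it acts as a feedback inhibitor. It was at 15.2, 15.1 and 13.7 CPM in controls 1 to 3 and at 14.3, 12.97 and 13.2 CPM in SRF 1 to 3. The values of all 6 mice lay within 1.17 times of each other, and SRF 1 lay above control 3. The log2 fold change was -0.12 (standard error 0.14, 95% interval -0.46 to 0.22, adjusted p = 0.996 from edgeR with Benjamini-Hochberg adjustment). In the deposited FPKM, which also divide by transcript length, Axin2 was at 3.67, 3.61 and 3.29 in controls 1 to 3 and at 4.39, 3.21 and 3.54 in SRF 1 to 3. Here SRF 1 was the highest library, and limma on log2(FPKM + 1) gave a log2 fold change of 0.053, opposite in sign to the counts. The ratio of FPKM to CPM was divided by its median over all tested genes in the same library. Relative to its mean in the controls, this scaled ratio was 1.23 for Axin2 in SRF 1 and 1.08 in SRF 3, against 0.976 in SRF 2. GENCODE M21 lists 7 transcripts of Axin2 with lengths from 477 to 4260 nt, and how FPKM were spread over them is not given in the sources used here. Over the 6 libraries the scaled ratio varied 1.26-fold for Axin2, 1.11-fold for Lef1 and 1.07-fold for Lrp6. For the other 7 genes it varied by at most 1.02-fold.

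The 250 bases before the start of Axin2 and the part of a Lef1 promoter that holds a TCF/LEF motif are shown because these genes serve as readouts of β-catenin acting with TCF and LEF factors at DNA. Both come from RefSeq on GRCm38.p6, run 5′ to 3′ on the forward strand and overlap no exon of GENCODE M21. They lie at chr11:108920099-108920348 for Axin2 and at chr3:131156127-131156173 for Lef1, inside the Lef1 gene and before an internal start site. Capitals mark the motif.
Axin2: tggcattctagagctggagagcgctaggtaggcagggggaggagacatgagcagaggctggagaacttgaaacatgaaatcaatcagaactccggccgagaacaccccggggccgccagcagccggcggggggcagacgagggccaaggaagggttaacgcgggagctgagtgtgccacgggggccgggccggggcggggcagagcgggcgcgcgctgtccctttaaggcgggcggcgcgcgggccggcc
Lef1: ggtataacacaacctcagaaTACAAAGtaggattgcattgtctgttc

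The motif ATCAAAG was searched on both strands together with its variant forms AACAAAG (second letter A), then TTCAAAG (first letter T) and finally TACAAAG (letters first T, then A), in windows of 250 bases before and 50 bases after each start. Windows were given for 7 of the 10 genes and numbered 11 in all, with 4 of them for Lef1. Of these 1 held a match, TACAAAG at 147 bases before the internal start of Lef1, while 16.9% of all 32851 promoter windows held one. Axin2 had no match in its window, which says only that these letters do not occur there. Its window had a GC content of 70.0% and 31 CpG dinucleotides, whereas the Lef1 window with the motif had 43.7% and 5.

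Of the 10 genes 3, Axin2, Lrp6 and Ctnnb1, had a 95% interval of the log2 fold change that stayed within 0.5 either way. Such an interval was found for 32.3% of all tested genes. For these 3 the interval of the main fit, not adjusted for the number of genes, lay inside the threshold for a call. Intervals were not computed in the other settings. The standard error of Axin2 was 0.14 in the main fit, against 0.19 in DESeq2 and 0.19 in edgeR without control 2. For Frzb and Wif1 the intervals reached past 1 on the log2 scale, and a change of that size would not be detectable at this spread between mice. The other 5 intervals passed 0.5 downwards for Sfrp1, Fzd4 and Lef1, upwards for Sfrp5 and both ways for Dkk3.

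**Figure D2:**
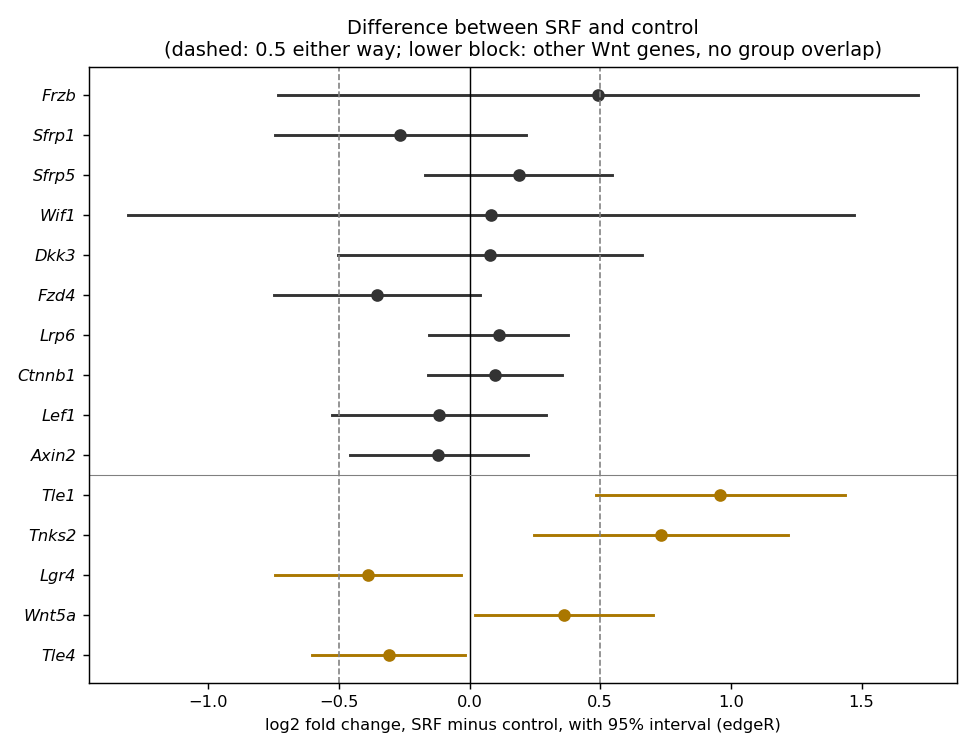
Log2 fold change between SRF and control from edgeR (points) with 95% intervals (lines) for the 10 Wnt genes (black) and 5 other genes of the pathway chosen for an unadjusted p under 0.05 and groups that do not overlap (brown). All 10 black intervals cross 0, from -1.31 at the lowest end (Wif1) to 1.72 at the highest (Frzb), and dashed lines mark 0.5 either way.

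Levels of different genes were compared in FPKM over all 6 libraries. Dkk3 was highest with a mean of 257 FPKM (range 174 to 324), at percentile 98.2 of all listed genes, followed by Ctnnb1 at 107 FPKM (95.9 to 116) and Sfrp1 at 46.4 FPKM (35.3 to 62.0). These 3 did not overlap with each other or with the next gene. Fzd4 at 23.6 FPKM (20.1 to 31.1) and Sfrp5 at 17.9 FPKM (14.8 to 21.9) overlapped in range, as neighbours that were not told apart beyond their spread. Lrp6 stood alone at 10.5 FPKM (9.02 to 12.7). The lowest 4 were Lef1 at 6.08, Wif1 at 3.66, Axin2 at 3.62 and Frzb at 3.30 FPKM, each overlapping its neighbour, and Frzb stood at percentile 32.6 of all listed genes. By their means, the secreted modulators thus took both the first and the last place in the order.

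**Figure D3:**
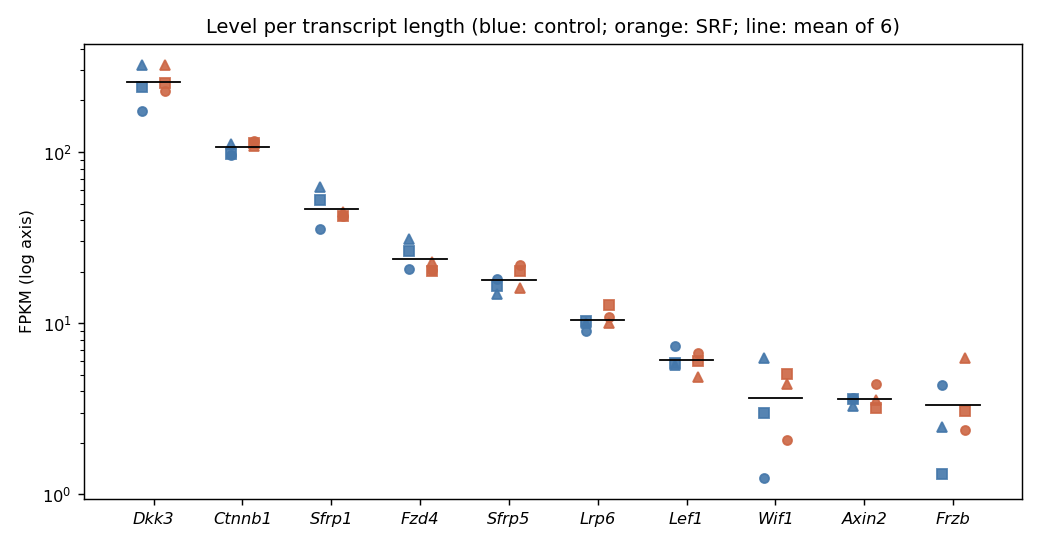
FPKM (log axis) of the 10 Wnt genes in order of their mean over 6 libraries (black line), with control mice in blue and SRF mice in orange and circle, square and triangle for mouse 1, 2 and 3. Means run from 257 FPKM for Dkk3 to 3.30 FPKM for Frzb, and the ranges of the last 4 genes overlap with those of their neighbours.

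Frzb and Wif1 spanned more than 1 log2 unit between libraries, and the genes with the most similar profile were looked for among 10540 genes with a mean of at least 10 CPM. Likeness was measured as the root mean square distance between log2 CPM profiles over the 6 libraries, each centred on its mean. Nearest to Frzb were Aqp4 (distance 0.22), the water channel of Müller glia and astrocytes and one of the 7 Müller markers used here, and Tram1l1 (distance 0.24). Aqp4 was at 43.4, 22.0 and 32.0 CPM in controls 1 to 3 and at 29.3, 41.1 and 73.6 CPM in SRF 1 to 3, lowest in control 2 and highest in SRF 3 like Frzb. Nearest to Wif1 were Srpx (distance 0.24) and Fmod (distance 0.26), which encodes fibromodulin, a proteoglycan of the collagen matrix. Fmod was at 271, 562 and 1061 CPM in controls 1 to 3 and at 522, 838 and 1140 CPM in SRF 1 to 3. Like Wif1, Fmod was lowest in control 1 and next lowest in SRF 1, but its highest library was SRF 3 where that of Wif1 was control 3.

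**Figure D4:**
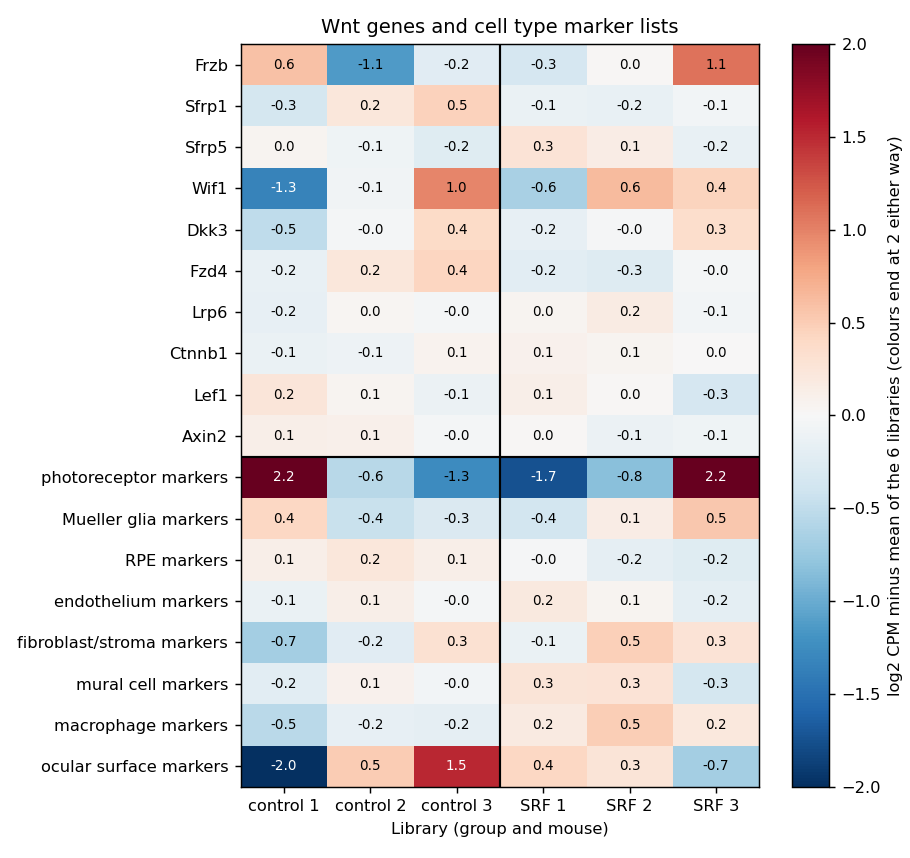
Log2 CPM of the 10 Wnt genes (upper rows) and mean log2 CPM of 8 marker lists (lower rows) in each library, minus the mean over the 6 libraries, in colours that end at 2 either way. Frzb is highest in control 1 and SRF 3, as are the photoreceptor and Müller glia markers. Wif1 is lowest in control 1, as are the fibroblast, ocular surface and macrophage markers.

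The rest of the pathway was described with lists of 116 genes that include the 10, of which 105 were listed with counts in all 6 libraries and 89 were tested, and the other 11 were not analysed here. In edgeR's quasi-likelihood test 3 of the 89 were higher and 2 lower in SRF at an unadjusted p under 0.05, against 4.16% of all tested genes higher and 2.85% lower, and 0 were called after Benjamini-Hochberg adjustment. The groups did not overlap for 11 of the 89, a share of 12.4% beside the 13.1% of all tested genes. Of these, Wnt5a, Fzd6, Tnks2, Tle1, Cd44, Vangl2, Celsr2 and Daam2 were higher and Lgr4, Wls and Tle4 lower in SRF. The median log2 fold change of the 89 genes was 0.08. Without the 10 members, 79 genes were tested, with a median of 0.09.

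Tle1, a member of the Groucho family of co-repressors that bind TCF and LEF factors, was at 20.8, 13.4 and 14.8 CPM in controls 1 to 3 and at 27.7, 36.1 and 31.2 CPM in SRF 1 to 3. Every SRF library lay above every control library. SRF exceeded control by 0.96 on the log2 scale (standard error 0.20), and the Benjamini-Hochberg adjusted p in edgeR was 0.298. DESeq2 called Tle1 (Benjamini-Hochberg adjusted p = 0.00608), and it called no other gene of the Wnt lists, so that 1 of 89 was called beside 1.14% of all tested genes. Tle4 of the same family had the opposite sign, at 41.2, 39.9 and 40.3 CPM in controls 1 to 3 and 33.3, 28.6 and 36.1 CPM in SRF 1 to 3 (log2 fold change -0.31, adjusted p = 0.672 from edgeR with Benjamini-Hochberg adjustment).

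Tnks2 encodes tankyrase 2, an enzyme that marks Axin proteins for degradation. It was at 78.5, 53.2 and 56.0 CPM in controls 1 to 3 and at 90.3, 93.3 and 128 CPM in SRF 1 to 3, with no overlap between the groups. The difference was 0.73 on the log2 scale (standard error 0.21), and the Benjamini-Hochberg adjusted p in edgeR was 0.426. Lgr4, a receptor of R-spondins, had a log2 fold change of -0.39 (adjusted p = 0.660) and Wnt5a, the ligand of mostly β-catenin-independent signalling, one of 0.36 (adjusted p = 0.668), both from edgeR with Benjamini-Hochberg adjustment and both without overlap between the groups. With control 1 and SRF 3 left out, edgeR with Benjamini-Hochberg adjustment called Tle1 (adjusted p = 0.0272) and Tnks2 (adjusted p = 0.0309) and no other gene of these lists, which was 2 of 89 beside 1.14% of all tested genes (154).

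Of 19 Wnt ligand genes 11 were listed and 8 tested, and the highest mean levels were 15.1 FPKM for Wnt5a, 5.79 FPKM for Wnt5b and 5.65 FPKM for Wnt11. Of 20 secreted modulators 17 were listed and 12 tested, and 0 had an unadjusted p under 0.05 in edgeR, beside 7.01% of all tested genes. After Dkk3 the highest in this list were Sostdc1, an antagonist of BMP and Wnt signals, at 161 FPKM and Sfrp2 at 123 FPKM. Sfrp2 varied between mice more than any of the 10 members, at 60.4, 123 and 379 CPM in controls 1 to 3 and 134, 334 and 442 CPM in SRF 1 to 3. Among 23 receptors and co-receptors, 19 of them tested, Fzd1 at 24.7 FPKM stood next to Fzd4 and Lrp6. Of the partners of Norrin signalling, Tspan12, a co-activator of Frizzled-4, was at 31.4 FPKM with a log2 fold change of -0.26, and Ndp, which encodes Norrin, at 3.17 FPKM with a log2 fold change of 0.52 (adjusted p of 0.925 and 0.884 from edgeR with Benjamini-Hochberg adjustment).

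Wls, the carrier that takes Wnt proteins to the cell surface, was at 141 FPKM and Porcn, which attaches their lipid, at 8.98 FPKM. Wls was at 408, 461 and 536 CPM in controls 1 to 3 and at 388, 366 and 386 CPM in SRF 1 to 3, lower without overlap (log2 fold change -0.30, adjusted p = 0.734 from edgeR with Benjamini-Hochberg adjustment). All 19 cytoplasmic components were tested, and beside Ctnnb1 the highest were the kinases Csnk1a1 at 91.8 FPKM and Gsk3b at 47.6 FPKM. The 12 nuclear factors, led by Tcf7l2 at 30.2 FPKM, Pygo2 at 9.62 FPKM and Tle1 at 8.50 FPKM, had a median log2 fold change of 0.26. At an unadjusted p under 0.05 in edgeR 1 gene was higher and 1 lower, beside 4.16% and 2.85% of all tested genes.

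Of 18 target genes 17 were listed and 14 tested, with a median log2 fold change of 0.04. An unadjusted p under 0.05 in edgeR was found for 0 of these targets, beside 7.01% of all tested genes. The highest of them were Ccnd1, the gene of cyclin D1, at 28.9 FPKM, the feedback inhibitor Nkd2 at 20.4 FPKM and the matricellular gene Ccn4 at 14.7 FPKM, against 3.62 FPKM for Axin2. Their log2 fold changes were -0.15 for Ccnd1, 0.05 for Nkd2 and 0.25 for Ccn4. Of the 8 genes of planar cell polarity tested, led by Vangl1 at 8.87, Prickle1 at 7.15 and Prickle2 at 4.15 FPKM, 3 were higher in SRF without overlap between the groups, where 6.71% of all tested genes were (Vangl2, Celsr2 and Daam2, with log2 fold changes of 0.43, 0.20 and 0.20). Of these 8 genes 0 had an unadjusted p under 0.05 in edgeR, beside 7.01% of all tested genes.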

How the data were processed

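RNA-seq of RPE-choroid from 3 control and 3 SRF mice was analysed, with groups and mouse numbers from the sample labels. Per the labels and the study's methods, the authors filtered reads with FASTP 0.18.0, mapped them and made read counts per gene with StringTie; the counts were deposited unnormalized, as whole numbers, and the authors also deposited FPKM. The aligner, build and strandedness are not given in the sources used here. GRCm38 was used because 15659 of 15663 identifiers were found in GENCODE M21.

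The test took the 13454 genes that exceeded 50 counts in 2 or more libraries and was run with edgeR 4.0.16 in R 4.3.3 (TMM, glmQLFit with legacy = TRUE, glmQLFTest, group as the only term) with Benjamini-Hochberg adjustment over all of them. Calls needed an adjusted p under 0.05 and a log2 fold change of 0.5 or more up or down. The median standard error was 0.19. CPM are TMM-normalized, and 95% intervals come from the edgeR fit. Named beside the 10 members were Wnt-list genes with an unadjusted p under 0.05 and no overlap, the 3 highest in FPKM per list, and for members spanning over 1 log2 unit the 2 nearest profiles; Fzd6, Cd44, Vangl2, Celsr2 and Daam2 were named after their values were seen. Alternatives were DESeq2 1.42.0, limma 3.58.1 (voom, or FPKM with a pseudocount of 1 or 0.1), other normalizations and filters, a replicate block, marker levels as covariates and leaving out libraries. The members and lists were chosen with earlier results of these data known. The tests were first run on simulated data.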

Additional observations from a re-analysis of the deposited data

How the results depend on the processing

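Over 19 alternatives 0 of the 10 members were called, and Sfrp1, Sfrp5, Fzd4, Lrp6 and Ctnnb1 kept their direction in all of them. Leaving out 1 library in turn gave log2 fold changes from -0.042 to 0.99 for Frzb, from -0.12 to 0.32 for Dkk3, from -0.31 to 0.80 for Wif1 and from -0.21 to 0.004 for Lef1, which turned sign, and from -0.46 to -0.08 for Sfrp1 and from -0.50 to -0.21 for Fzd4, which did not. Without both libraries richest in photoreceptor RNA (control 1 and SRF 3), Dkk3 was at -0.28, Wif1 at -0.43 and Lef1 at 0.10, and limma on FPKM put Axin2 at 0.053 with a pseudocount of 1 and at 0.063 with 0.1. The cause of these turns was not tested. Of all tested genes, edgeR called 0, DESeq2 153, and edgeR without both of those libraries 154. It called 1 with legacy = FALSE, with upper quartile normalization, without a filter, with filterByExpr and with photoreceptor or ocular surface levels as a covariate, as did limma voom, and from 0 to 5 with 1 library left out (5 without control 1). In the Wnt lists DESeq2 called 1 gene and edgeR without both libraries 2, against 0. Same-numbered mice of the groups are not the same animal, and their deviations correlated at -0.48, 0.49 and -0.30 across genes. Differently numbered mice ran from -0.70 (control 2 with SRF 3) to 0.62 (control 2 with SRF 1). Deviations within a group of 3 are tied to each other, so these values cannot tell whether a shared batch goes with the numbers. With a replicate block 0 genes were called, and all 10 members kept their direction, with a smallest adjusted p of 0.548 from edgeR with Benjamini-Hochberg adjustment. With 3 mice a group the median standard error over tested genes was 0.19, and those of Frzb and Wif1 were 0.52 and 0.59.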
